A study of Mus musculus with 8 samples.

Results

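In wild-type (WT) mouse embryonic fibroblasts, the stretches of chromosomes 10 and 15 that lay outside every listed region of mono-, di- and trimethylated histone H3 lysine 9 were examined. The marks are written H3K9me1, H3K9me2 and H3K9me3. These fibroblasts are a cultured line termed E1c, in which Eset1 (Setdb1) can be deleted with tamoxifen and which served as WT with that gene intact, so that every map below comes from this 1 line. Chromatin immunoprecipitation with an antibody to each mark was followed by sequencing (ChIP-seq), in 8 samples that formed 4 groups (input and the 3 marks) of 2 replicates each. The data were 1 list of enriched regions for each mark, drawn on a grid of 750 bp bins, with no value per replicate and no score. Read depth at a region or gap and replicate spread can therefore not be read from the lists. No test between samples could be made, and the intervals given are 95% Wilson intervals that cover counting error only.

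Chromosomes 10 and 15 were the most covered in these lists, with 176 Mb of marked sequence against 73.6 Mb on the 12 least covered together, a difference whose cause was not tested. Their listed regions were merged, and the unlisted stretches between neighbouring merged regions were kept when they measured at least 3 kb and at most 200 kb. This gave 4993 gaps, 2442 on chromosome 10 and 2551 on chromosome 15, of 34929 such gaps on 21 chromosomes. The gaps were chosen by their absence from the region lists, and a gap is a stretch in which no region was called, which is not a measurement of zero methylation. What is given below on marks at gap edges and around starts comes from the same lists and is descriptive. Genes, start sites and base composition were not used to choose the gaps.

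Much transcriptionally silent DNA carries methyl groups on H3K9. Trimethylation by Setdb1 and the Suv39h enzymes covers repeats, zinc finger gene clusters and lineage-inappropriate genes, dimethylation by G9a and GLP covers broad silent domains, and monomethylation has been found both as an intermediate and along expressed genes. Mammalian promoters fall broadly into those with a CpG island, a stretch rich in unmethylated CpG dinucleotides that is typical of broadly expressed and developmental genes, and CpG-poor ones, typical of genes confined to a few cell types. An unmarked gap may therefore be described by whether a gene starts in it, which gene that is, and how CpG-rich its sequence is.

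The sequences immediately before 5 gene starts show the range of promoter DNA involved. Each is the 120 bases upstream of the annotated start on the gene's strand (GRCm38, 5′ to 3′), overlaps no annotated exon, and has its CpG dinucleotides in capitals. Brd1, which encodes a chromatin reader, and Rpl41, a ribosomal protein gene, had the most and the fewest CpG of 42 broadly expressed genes that start in a gap. Aqp5, a water channel gene, and Krt8, a keratin gene, were the corresponding pair of 14 tissue-restricted genes that start in a gap. Vmn2r86, a vomeronasal receptor gene, has the median count among 164 tissue-restricted genes that start inside a marked region, and was added as a contrast after the values were seen.
Brd1, chr15:88734234-88734353, minus strand, 25 CpG: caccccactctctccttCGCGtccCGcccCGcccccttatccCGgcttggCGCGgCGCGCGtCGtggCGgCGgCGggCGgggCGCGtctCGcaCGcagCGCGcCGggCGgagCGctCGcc
Rpl41, chr10:128549306-128549425, minus strand, 3 CpG: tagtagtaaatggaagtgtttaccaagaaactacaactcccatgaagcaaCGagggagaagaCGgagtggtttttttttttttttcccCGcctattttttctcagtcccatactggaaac
Aqp5, chr15:99590662-99590781, plus strand, 15 CpG: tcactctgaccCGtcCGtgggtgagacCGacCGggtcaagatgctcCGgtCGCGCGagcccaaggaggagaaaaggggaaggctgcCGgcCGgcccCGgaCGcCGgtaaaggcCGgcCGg
Krt8, chr15:102004483-102004602, minus strand, 0 CpG: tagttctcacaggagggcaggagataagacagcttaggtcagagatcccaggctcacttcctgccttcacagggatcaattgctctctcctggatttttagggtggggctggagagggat
Vmn2r86, chr10:130456051-130456170, minus strand, 0 CpG: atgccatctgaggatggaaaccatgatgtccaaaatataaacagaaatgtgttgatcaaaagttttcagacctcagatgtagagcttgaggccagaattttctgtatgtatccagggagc

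The gaps were numerous and mostly short. Their median width was 5.25 kb (interquartile range 3.75 to 9 kb), with 10% wider than 17.25 kb. Those of chromosome 15 were wider, with a median of 6 kb against 4.5 kb on chromosome 10. They summed to 44.1 Mb, or 19.2% of the known bases of the pair of chromosomes. Marked sequence made up 77.5%, and the remaining 5360 gaps, all under 3 kb, 3.31%. At the lower limit, 986 gaps measured exactly 3 kb and were kept, while 1391 of 2.25 kb were not. At the upper limit the widest kept gap measured 184.5 kb, and the only gap left out for its width measured 354.75 kb, of which 3.296% was known sequence.

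Protein-coding genes started in the gaps far more often per base than in marked sequence. Of 1806 protein-coding gene starts, 773 lay in a gap, which is 42.8% (40.5 to 45.1%) of the starts on 19.2% of the bases. Another 277 starts (15.3%) lay in gaps under 3 kb and 756 (41.9%) in a marked region. Per Mb of known sequence there were 17.6 starts in gaps and 4.29 in marked regions, a ratio of 4.117. With gaps of at least 6 kb only, the ratio was 2.317 and 18.33% of starts lay in them. The ratio was 4.713 on chromosome 10 and 3.627 on chromosome 15. It was 2.467 on chromosomes 5, 8, 9, 11, 14, 17 and 19, the others with broad coverage, and 1.605 on the remaining 12, where gaps averaged 28.5 kb against 8.84 kb here. These are values side by side, and the difference between chromosomes was not tested.

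Over all 4481 annotated genes, 1241 starts (27.7%) lay in a gap. The share was 16.2% (13.4 to 19.4%) for lincRNAs, long RNAs transcribed from between genes, and 25.3% (20.2 to 31.2%) for antisense RNAs. Only 8.97% (7.21 to 11.1%) of 825 processed pseudogenes, retrocopies that arrive without a promoter, started there. Of 38 long non-coding RNAs annotated as sharing a bidirectional promoter with a neighbouring gene, 25 (65.8%, 49.9 to 78.8%) started in a gap, 10 in a gap under 3 kb and 3 in a marked region.

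CpG islands, called here as windows of 500 bp with at least 55% GC and an observed over expected CpG ratio of at least 0.65, followed the protein-coding starts. Of 1867 islands, 796 (42.6%, 40.4 to 44.9%) had their midpoint in a gap, 304 in a gap under 3 kb and 767 in a marked region. Of the islands in gaps, 80.03% lay within 1 kb of a protein-coding gene start and 90.7% within 1 kb of any annotated transcript start, and 74 islands had no transcript start that near.

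A start was nonetheless the exception among gaps. Only 666 gaps, or 13.3% (12.4 to 14.3%), held a protein-coding start, and 608 of these (91.3%) held a CpG island as well. A further 102 gaps held an island and no protein-coding start, and 63 of these contained the start of some other transcript. The remaining 4225 gaps (84.6%) held neither. Of the 4327 gaps with no protein-coding start, 1466 (33.9%) lay within a protein-coding gene and 2799 (64.7%) wholly outside one. The nearest protein-coding start was over 100 kb away for 2670 (61.7%) and within 10 kb for 189. By base, 37.3% of the sequence of all kept gaps and 42.3% of marked sequence lay within protein-coding genes.

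Among kept gaps, the density of protein-coding starts fell with width. Gaps of 3 to 4.5 kb (n = 2272) held 45.4 protein-coding starts per Mb, those of 5.25 to 9 kb (n = 1488) held 22.8, those of 9.75 to 18 kb (n = 763) held 11.3, those of 18.75 to 36 kb (n = 344) held 5.87, and those over 36 kb (n = 126) held 2.07, below the 4.29 of marked sequence. The share of gaps with a start fell less, from 14.3% (12.9 to 15.8%) in the narrowest class to 9.52% (5.53 to 15.9%) in the widest, with overlapping intervals. Any annotated gene start was found in 16.9% of the narrowest and 35.7% of the widest gaps, each of which spans more sequence. Per base such starts fell as well, with 481 on 8.21 Mb in the narrowest class and 65 on 7.57 Mb in the widest. Among gaps left out as too narrow, those of 2.25 kb held 52.8 starts per Mb, those of 1.5 kb held 37.1 and those of 0.75 kb held 3.88.

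**Figure D1:**
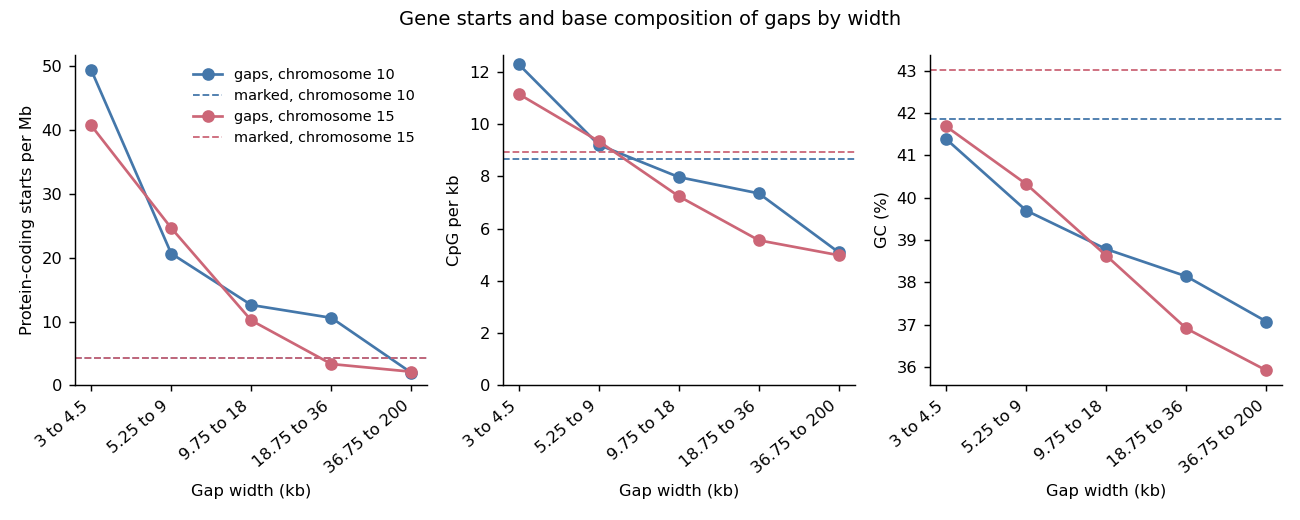
Points show gaps of chromosomes 10 and 15 by width class (x axis, kb), with protein-coding gene starts per Mb on the left, CpG per kb in the middle and GC in percent on the right (axis not from 0), and dashed lines give the marked sequence of each chromosome. On both chromosomes all 3 measures fell from each width class to the next, and start density ended below the marked level of 4.32 per Mb on chromosome 10 and 4.23 on chromosome 15.

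Base composition moved with width in the same order. Over all gaps GC was 38.9%, against 42.3% in marked sequence, and CpG occurred 8.04 times per kb against 8.77. From the narrowest to the widest class GC went from 41.5 to 36.5% and CpG from 11.8 to 5.03 per kb. Soft-masked repeats made up 34.6% of gap sequence and 33.0% of marked sequence. By chromosome, CpG was 8.60 per kb in gaps and 8.66 in marked sequence on chromosome 10, and 7.57 and 8.93 on chromosome 15, so that nearly all of the pooled difference lay on chromosome 15. The lower CpG of the gaps also depended on the H3K9me1 list. Where gaps were drawn from H3K9me2 and H3K9me3 alone, gap sequence held 9.52 CpG per kb and marked sequence 8.26, while GC stayed lower in gaps (41.3 against 41.9%).

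Gaps with a start and those without differed in composition. The former had a median of 28 CpG per kb (interquartile range 19.6 to 37.2), and the latter 5.36 (3.96 to 8.37). Pooled over their bases the values were 22.5 and 6.05 CpG per kb, 46.5 and 37.8% GC, and 22.7 and 36.2% soft-masked. Gaps of 3 to 4.5 kb with a start reached 35.9 CpG per kb. Gaps that held neither a start nor an island fell with width too, from 7.22 CpG per kb and 39.6% GC at 3 to 4.5 kb to 4.61 CpG per kb and 36.2% GC over 36 kb.

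Within a gap, starts lay a short way in from the edge. The marked bin that adjoined a gap held 2.19 protein-coding starts per Mb, the first 750 bp of the gap 11.8, the next bin 42.8 and the one after it 35.5. Beyond 11.25 kb from both edges the density was 1.39. These values, and the pooled CpG values that follow, take gaps of all widths together. Deeper bins come from fewer and wider gaps, with 7297 bins at 1.5 to 2.25 kb against 9986 at 0.75 to 1.5 kb. Depth and gap width are therefore mixed in them. CpG was 8.46 per kb in the adjoining marked bin and lower, 7.98, in the first gap bin, then 10.8 in the second and 5.09 in the interior of wide gaps. In gaps of 3 to 4.5 kb the first gap bin was instead higher, 9.13 against 8.84 in the marked bin. It was lower in every wider class.

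**Figure D2:**
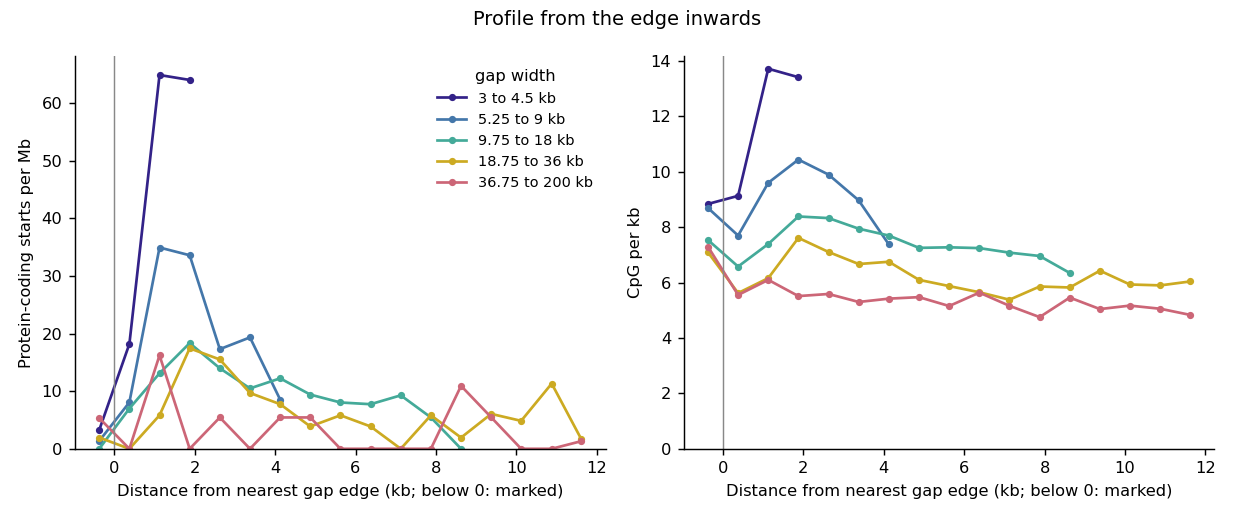
Lines give protein-coding starts per Mb (left) and CpG per kb (right) against the distance from the nearest gap edge in kb, in bins of 0.75 kb, for 5 width classes, with the adjoining marked bin left of the grey line and the last point holding all positions from 11.25 kb inwards. Start density reached 64.9 per Mb between 0.75 and 1.5 kb from the edge in gaps of 3 to 4.5 kb, and the points of the widest class rest on 0 to 6 starts each.

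The gap around a start was longer on the side of the transcribed gene. In the 570 gaps with a single protein-coding start, the unmarked stretch reached a median of 1.739 kb upstream (interquartile range 1.169 to 3.017 kb) and 2.876 kb downstream (1.834 to 5.887 kb). It was longer downstream in 402 of them (70.5%, 66.7 to 74.1%), in 71.9% on chromosome 10 and in 68.9% on chromosome 15. In 523 (91.75%) the gap ended inside the gene, so that marking resumed before the gene's end. Another 89 gaps held 2 protein-coding starts, 40 of them head to head within 1 kb, while 5 gaps held 3 and 2 gaps held 4.

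Over all 1806 protein-coding starts, whatever class they fell in, the share covered by any of the marks was 41.9% at the start, 85.4% at 5 kb upstream and 81.7% at 5 kb downstream. The dip was deepest for H3K9me1, which covered 35.3% of starts and 77.6% and 75.3% of positions 5 kb upstream and downstream. H3K9me2 covered 30.2% of starts, 51.8% of positions 5 kb upstream and 42.4% of those 5 kb downstream. H3K9me3 covered 29.2%, 45.5% and 38.2%. H3K9me2 and H3K9me3 were thus lower on the transcribed side than upstream, while H3K9me1 came back to similar levels on both sides.

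**Figure D3:**
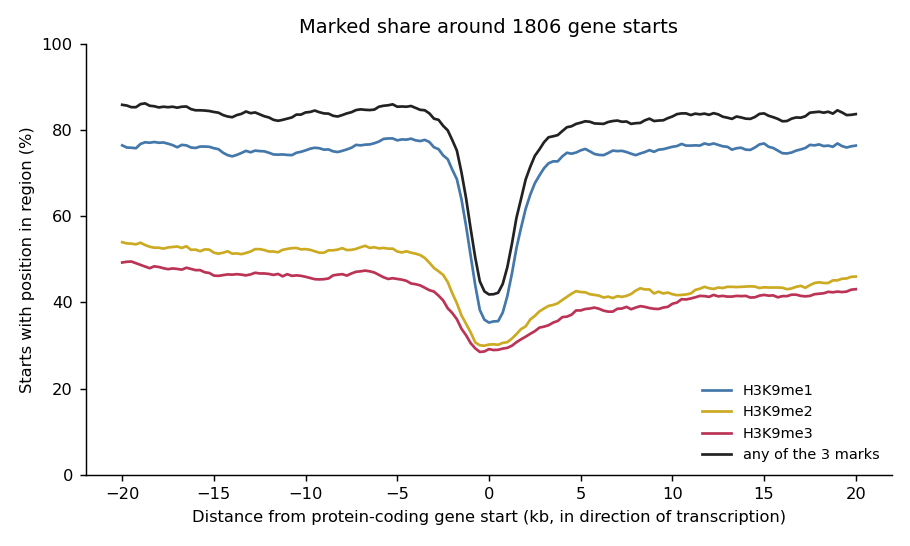
The share of 1806 protein-coding gene starts (y axis, %) at which a given position (x axis, kb from the start in the direction of transcription) lay in a listed region is drawn for each mark and for any of them. All 4 lines dip at the start, the H3K9me1 line from 77.6% at 5 kb upstream to 35.3%.

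The marks that bordered gaps with a start differed from those bordering the rest. Of the 1332 edges of gaps with a protein-coding start, 92.6% carried H3K9me1, 11% H3K9me2 and 7.96% H3K9me3. Of the 8654 edges of gaps without one, 39.5% carried H3K9me1, 32.4% H3K9me2 and 42.4% H3K9me3. Both edges carried H3K9me1 alone in 491 gaps with a start (73.7%) and in 1013 gaps without (23.4%). In gaps of 3 to 9 kb only, the H3K9me1 shares were 95.4% with and 43.9% without a start. At the widest gaps, over 36 kb, 58.3% of edges carried H3K9me3 and 24.6% H3K9me1. Around single starts, the upstream edge carried H3K9me2 in 17.9% and H3K9me3 in 11.8% of cases, and the downstream edge in 6.49% and 4.74%.

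Genes were then placed by role, in 5 lists, with all 1804 named protein-coding genes as background. Of those 1804, 42.7% started in a gap, 15.4% in a gap under 3 kb and 41.9% in a marked region. The lists were written with earlier results of these data known. Their shares therefore describe the chosen members only, and are no independent sample of a gene class. Of 53 broadly expressed machinery genes, 46 (86.8%, 75.2 to 93.5%) started in a gap, 4 in a gap under 3 kb and 3 in a marked region. The widest gaps of this list held Hdac2, a histone deacetylase gene (51.75 kb), Nipbl, which encodes the cohesin loader (44.25 kb), and Eif4b, a translation initiation factor gene (39.75 kb). Next came Pcbp2, which encodes an RNA-binding protein, with 34.5 kb. Cbx5, the gene of heterochromatin protein HP1α, a reader of H3K9 methylation, and Hnrnpa1, a splicing factor gene, started head to head in 1 gap of 22.5 kb. The 3 that started in marked regions were Sirt1, a deacetylase gene, in H3K9me1, and Xrcc6, a DNA end-joining gene, and Ywhaz, a 14-3-3 gene, both in H3K9me1 and H3K9me2.

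Cell cycle and stress response genes were placed alike, with 27 of 32 (84.4%, 68.3 to 93.1%) in a gap, 2 in a gap under 3 kb and 3 in a marked region. Ppp1r12a, a myosin phosphatase subunit gene, started in a gap of 39.0 kb and Racgap1, a cytokinesis gene, in one of 25.5 kb. E2f7, an atypical E2F repressor gene (22.5 kb), Mdm2, the p53 ubiquitin ligase gene (21.75 kb), Btg1, an antiproliferative gene (20.25 kb), and Phlda1, an immediate early response gene (20.25 kb), followed. Perp, a p53 target gene, Sgk1, a kinase gene, and Txnrd1, the thioredoxin reductase gene, started where all 3 lists overlapped. The gene of the transcription factor Myc lay whole within a gap of 10.5 kb, with 3.89 kb before its start.

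Of 35 genes on the list named fibroblast matrix and surface, 23 (65.7%, 49.2 to 79.2%) started in a gap, 6 in a gap under 3 kb and 6 in a marked region. The list is broader than its name, since it includes genes of intracellular proteins such as Myh9, Tns2 and Hmga2. Marcks, an actin-binding substrate of protein kinase C, had 45.75 kb and lay whole inside its gap, with 37.1 kb before its start. Tns2, a focal adhesion gene, shared the 39.75 kb gap of Eif4b. Myh9, a non-muscle myosin gene, started in a gap of 29.25 kb, Ccn4, a matricellular protein gene, in one of 23.25 kb, Hmga2, a chromatin architectural gene of embryonic cells, in one of 19.5 kb, and Sdc2, a syndecan gene, in one of 15.75 kb. Dcn, the decorin gene, started in a gap of 3 kb, 0.141 kb from its downstream edge, and Lum, its neighbour that encodes lumican, started in H3K9me2. Cd63, Col14a1 and Lifr, which encode a tetraspanin, a fibril-associated collagen and a cytokine receptor, started in marked regions that included H3K9me1.

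Developmental regulators were divided, with 21 of 37 (56.8%, 40.9 to 71.3%) in a gap, 16 in a marked region and none in a gap under 3 kb. Zfpm2, a GATA cofactor gene, started in a gap of 46.5 kb and Trps1, a zinc finger repressor gene, in one of 26.25 kb. Of the 9 Hoxc genes, which pattern the body axis, Hoxc5, Hoxc6, Hoxc10, Hoxc11, Hoxc12 and Hoxc13 started in gaps. Hoxc10, Hoxc11 and the annotated 5′ end of Hoxc5 shared 1 gap of 27.75 kb (chr15:102942001-102969750) with the non-coding RNA gene Hotair, and H3K9me1 alone bordered that gap on both sides. Hoxc4 and Hoxc8 started in H3K9me1 and Hoxc9 in H3K9me1 and H3K9me3. Among the others in marked regions, Dmc1, a meiotic recombinase gene, started where all 3 lists overlapped, Alx1, a craniofacial homeobox gene, in H3K9me3 alone and Foxh1, a Nodal signalling factor gene, in H3K9me1 alone.

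Tissue-restricted gene clusters had the fewest, with 15 of 180 (8.33%, 5.12 to 13.3%) in a gap and 165 (91.7%, 86.7 to 94.9%) in a marked region. Genes of a cluster lie close together, so the 180 are not separate observations. All 79 olfactory receptor (Olfr) genes, all 15 trace amine receptor (Taar) genes, all 8 vomeronasal receptor (Vmn) genes and all 8 Cyp2d cytochrome genes started in marked regions. Of the 79 Olfr starts, 77 lay in H3K9me3, 73 in H3K9me2 and 65 in H3K9me1. Of 26 keratin (Krt) genes the 2 in gaps were Krt8, the simple-epithelial keratin gene, in a gap of 15 kb, and Krt80, in one of 8.25 kb. Of 11 Ly6 surface protein genes the 3 were Ly6a (12 kb), Ly6c1 (10.5 kb) and Ly6e (3.75 kb), and of 12 apolipoprotein L (Apol) genes the 5 were Apol6, Apol7a, Apol8, Apol9a and Apol9b. Apol8 had the widest gap of these, 34.5 kb. Members of such families resemble each other, and how multi-mapping reads were treated is not given in the sources used here, so the call at any 1 of them is uncertain.

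In 23 of the 666 gaps with a protein-coding start (3.45%, 2.31 to 5.13%), neither edge carried H3K9me1. Their median width was 9.75 kb, against 5.25 kb for all gaps with a start. The widest of the 23 included those of 3 classical cadherin genes of chromosome 15, which encode cell adhesion proteins. Cdh9 started in a gap of 59.25 kb, Cdh12 in one of 55.5 kb and Cdh10 in one of 22.5 kb. H3K9me3 or H3K9me2 bordered each. Hdac2 (51.75 kb), Rab32, which encodes a small GTPase (27.75 kb), and Nts (26.25 kb) were others, named after their values were seen. Cdh18 started in H3K9me2 and Cdh6 in H3K9me2 and H3K9me3. In windows of 10 Mb along chromosome 15, the share of known bases in gaps ranged from 6.72% at 80 to 90 Mb, with 150 protein-coding starts, to 49.1% at 10 to 20 Mb, with 26. On chromosome 10 it ranged from 4.19% at 70 to 80 Mb, with 159 starts, to 30.6% at 40 to 50 Mb, with 48, the short last window aside. Gene-rich and gene-poor windows did not fall in 1 order there, since 120 to 130 Mb had 175 starts and 19.6% in gaps, and 90 to 100 Mb had 46 starts and 4.97%.

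**Figure D4:**
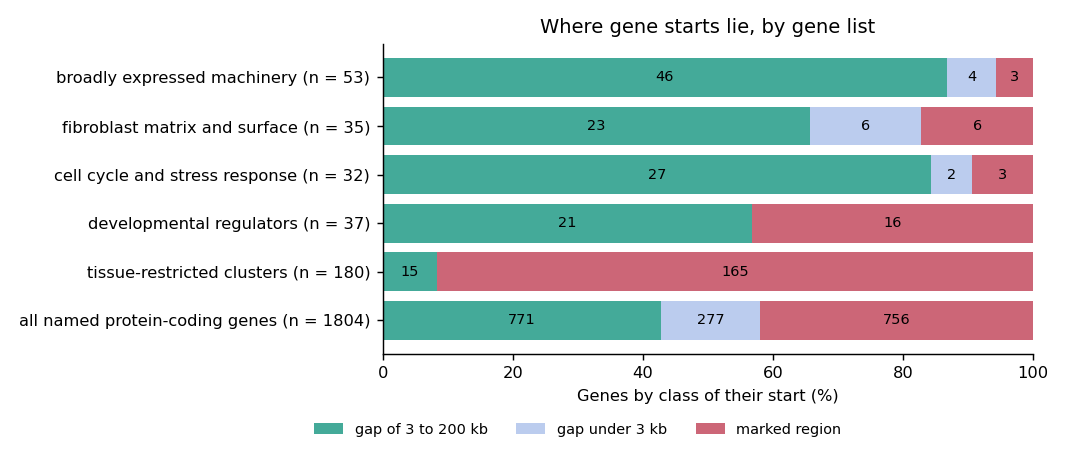
Bars divide each gene list into genes whose start lay in a gap of 3 to 200 kb (green), in a gap under 3 kb (pale blue) or in a marked region (red), as percent of the list, with the number of genes printed in each part. The machinery list has 46 of 53 in gaps and the tissue-restricted list 15 of 180, beside 771 of 1804 for all genes. The lists were written with earlier results of these data known.

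**Figure D5:**
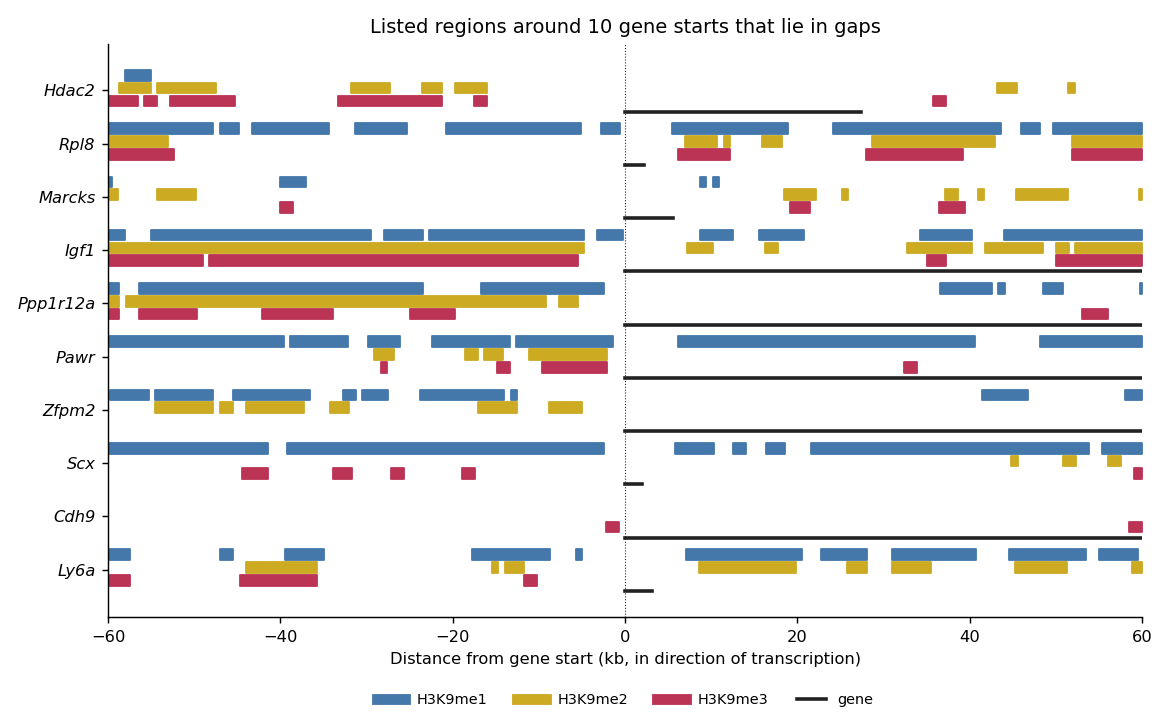
For each gene list, the member with the widest gap and the one with the median gap width are drawn with the listed regions of H3K9me1 (blue), H3K9me2 (yellow) and H3K9me3 (red) up to 60 kb either side of the gene start, and the gene as a black line, against distance in kb in the direction of transcription. Each start lies in a white stretch, which H3K9me1 borders at Rpl8 and Pawr and H3K9me3 at Cdh9 and Hdac2. At Hdac2 the upstream edge carries H3K9me2 as well.

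Gaps over 36 kb with a start numbered 12 and held 15 protein-coding starts. They belonged to Frk, Hdac2, Marcks, Ppp1r12a, Atxn7l3b, Thap2 and Zfc3h1 on chromosome 10 and to Nipbl, Cdh9, Cdh12, Zfpm2, Eny2 and Nudcd1, and Eif4b and Tns2 on chromosome 15. Atxn7l3b, which encodes a partner of deubiquitinating enzymes, had the widest, 111.0 kb. Gaps held 80 named protein-coding genes from end to end, 4.43% of the 1804, with a median length of 3.3 kb. Among them were the ribosomal protein genes Rpl8, Rpl30, Rpl37, Rpl41, Rps12, Rps15 and Rps26, named after their values were seen. Genes that start in a gap had a median length of 24.1 kb and those that start in a marked region 11 kb.

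The widest gaps themselves were without protein-coding starts. On chromosome 10 they measured 184.5 kb (chr10:124091251-124275750), 180.75 kb (chr10:46687501-46868250) and 128.25 kb (chr10:123960751-124089000). H3K9me3 bordered the first and the last on both sides and H3K9me2 the other, and their GC lay between 37.1 and 37.5%. On chromosome 15 the widest, 149.25 kb (chr15:38733001-38882250), consisted to 99.17% of unknown bases and so is a hole in the assembly. Next were 114.75 kb (chr15:20667001-20781750) within Cdh12 and 90 kb (chr15:48238501-48328500) within Csmd3, a large gene expressed in brain, both AT-rich with 35.9 and 33.0% GC. In all, 7 of the 4993 gaps held unknown bases. Also mostly unknown were gaps of 75.75 and 3 kb on chromosome 10, at 98.84 and 100%. So were gaps of 57.75, 40.5 and 4.5 kb on chromosome 15, at 86.58, 94.85 and 67.8%. The edge shares given above for gaps over 36 kb include such gaps.

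Gaps with the most starts were of another kind. The 32.25 kb gap chr10:80137501-80169750 held the starts of Atp5d, Cbarp, Cirbp and Midn, of which Atp5d encodes a subunit of ATP synthase and Cirbp a cold-inducible RNA-binding protein. Its GC was 57.1% and it held 33.7 CpG per kb. The gap chr10:79983001-79998000, of 15 kb, held Abca7, Cnn2 and Tmem259, at 54.4% GC. On chromosome 15, a gap of 6.75 kb (chr15:76326751-76333500) held Exosc4, Gpaa1 and Oplah, and one of 3.75 kb (chr15:89427751-89431500) held Chkb, C730034F03Rik and Gm44502. H3K9me1 alone bordered each of these 4 on both sides. The exception was chr10:100330501-100353750, of 23.25 kb, where the predicted genes Gm4301, Gm4302, Gm4303 and Gm4305 start. It had 40.5% GC, 6.19 CpG per kb and edges with H3K9me2 and H3K9me3, and whether reads can be placed uniquely among these predicted genes was not examined.

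Promoter sequence differed between the classes in CpG and in short motifs. The window from 250 bases before to 50 after each start was read from the genome for each named gene. Its median CpG count was 22 (interquartile range 13 to 31) for the 771 starts in gaps, 19 (13 to 25) for the 277 in gaps under 3 kb, 4 (2 to 9) for the 756 in marked regions and 11 (3 to 22) for 21911 genes of all chromosomes. At least 10 CpG were present in 82.4% of windows in gaps and in 22.5% of those in marked regions. Of the 31 gap genes with 3 or fewer, Igf1, a growth factor gene, Ly6a, Nts, which encodes neurotensin, and Pmel, a pigment cell gene, are examples named after their values were seen.

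Motifs were searched as exact letters on both strands of these windows, and none of the 6 contains another. GGGCGG, the GC box read by SP and KLF factors, stood in 69.5% (66.2 to 72.7%) of windows in gaps, 22.0% (19.2 to 25.1%) in marked regions and 43.0% of all 21911. CCGGAAG, the core of ETS sites, stood in 16.0% (13.5 to 18.7%), 3.57% (2.47 to 5.15%) and 10.8%. GCATGCGC, an NRF1 core, stood in 5.71%, 0.794% and 3.71%, and ATGGCGGC, a YY1 core, in 5.45%, 0.397% and 2.56%. TATAAA, the TATA box, went the other way, with 6.36% (4.84 to 8.30%) in gaps, 22.1% (19.3 to 25.2%) in marked regions and 12.7% of all. CCAAT, which like TATAAA holds no CpG, was as frequent in gaps (37.1%, 33.8 to 40.6%) as in marked regions (37.2%, 33.8 to 40.7%). Of all windows, 39.0% held it. In gaps under 3 kb, CCGGAAG stood in 22.7% (18.2 to 28.0%), GCATGCGC in 7.58% and GGGCGG in 63.5%. The median GC of the windows was 62.3% in gaps and 50.3% in marked regions. Whether CpG or GC content accounts for any of these shares was not tested.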

How the data were processed

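The samples were 2 replicates each of input, H3K9me1, H3K9me2 and H3K9me3 ChIP from WT (E1c) MEFs. Reads were mapped by the authors to build mm10 using bwa, for which the submitters' processing notes give 0.7.1, and called regions with histoneHMM. How replicates and input entered the call, the threshold and the duplicate and multi-mapping filters are not given in the sources used here. The deposited lists hold 3 position columns and no measured value. All positions lay on the 750 bp grid with 1-based starts and inclusive ends.

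The members and gene lists were chosen with earlier results of these data known. Rows of the 3 lists were merged per chromosome, and gaps of 3 to 200 kb kept. Genes and starts (the 5′ end of the gene) came from GENCODE M21, bases and soft-masking from the GRCm38.p6 sequence. A start was placed by the class of its base, an island (500 bp windows in steps of 10 bp) by its midpoint. Named were the 3 widest gaps and the 3 with most starts on each chromosome, and from each list up to 6 members in the widest gaps and 4 in marked regions in alphabetical order, except 1 that is not reported here. Promoter windows were read from the genome, since the RefSeq promoter table held 1212 of the 1804 genes (67.2%, under the 80% needed). This choice was made after seeing the data. There are no values per sample, so no test was run. Merging, gap and placement steps were tested on simulated data. Scripts ran in Python 3.11.15 with NumPy 2.4.6, and figures were drawn with Matplotlib 3.10.9.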

Additional observations from a re-analysis of the deposited data

How the results depend on the processing

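Of 73 values recomputed for the 7 main results under 11 alternatives, 47 stayed within 1.5 times the reported count, length or ratio, or within the counting interval of the reported share, and 26 moved. For GC and CpG the counting interval treats single bases as independent and is very narrow. A change in GC from 38.89 to 38.93% therefore counted as moved. The ratio of start density stayed above 1 in every alternative. With gaps of at least 1500 bp there were 8287 gaps, 11.05% held a start, 57.81% of starts lay in them, GC was 39.23% and CpG 8.431 per kb. With gaps of at least 6000 bp there were 2288, holding 18.33% of starts at a density ratio of 2.317, with 38.14% GC and 7.002 CpG per kb. Capping gaps at 100 kb gave 38.94% GC and 8.149 CpG per kb. Merging only regions of at least 2 kb gave 14.44% of gaps with a start and 39.03% GC. Without the H3K9me1 list gaps summed to 75.64 Mb and held 63.07% of starts, with 41.29% GC and 9.522 CpG per kb. The difference in CpG between gaps and marked sequence reversed there, from -0.726 to 1.263 per kb. Without H3K9me2, 12.4% of gaps held a start (38.93% GC, 7.745 CpG per kb), and without H3K9me3, 12.08% did (39.04% GC, 7.84 CpG per kb). Counting any annotated start of a gene gave 16.5% of gaps and 45.68% of genes. Having no upper limit, 0-based starts or leaving out gaps with unknown bases moved none of these results. The RefSeq promoter table gave a median of 25 CpG in gaps and 5 in marked regions. No paired analysis was possible because each mark has 1 list for its replicates, and leaving out a replicate could not be done for the same reason. Depth is unknown from the lists, so a gap cannot be told apart from a stretch with too few reads for a call, and mappability was not measured.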
